A study of Homo sapiens with 12 samples.

Results

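Genes of ribosome biogenesis and of polyamine synthesis were followed in H929 cells, a human line established from multiple myeloma, the malignancy of plasma cells. Their 39 symbols were looked up in a table of 54675 microarray probe sets, and each gene was read from its brightest probe set, by the mean of the 12 arrays. A probe set that carries this symbol alone was found for 33 of the 39 genes, out of 19775 genes named on the array. All 33 passed the filter on dim genes, which kept 14725 genes that exceeded the 40th percentile of the array in at least 3 arrays. NOP56, DKC1, BOP1 and PPAN appear only on probe sets with several symbols, DDX18 and GNL3 are not listed, and these 6 genes were not analysed here.

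There were 4 groups with 3 arrays each. Cells of the infected arm received a short hairpin RNA that targets BCL9 (shBCL9), or one against green fluorescent protein as control (shGFP), and GFP-positive cells were sorted by flow cytometry. Cells of the transfected arm received human miR-30, which the labels write as hsa-miR-30a/b/c/d/e without saying whether the members were given together, or the worm microRNA cel-miR-67 as control. The cells of all 4 groups were H929, the labels name no promoter, clone or time point, and they do not say whether replicate arrays stand for separate cultures. The p-values therefore measure the spread between these arrays alone, which may be technical.

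Ribosomes are built in the nucleolus. RNA polymerase I transcribes the precursor of the ribosomal RNAs, small nucleolar ribonucleoproteins direct its methylation and pseudouridylation, and processing factors cut it and assemble it with ribosomal proteins into the small and the large subunit. Polyamines are made from ornithine by ornithine decarboxylase and the spermidine and spermine synthases, with an aminopropyl donor supplied by S-adenosylmethionine decarboxylase. Many genes of both pathways are known targets of MYC, which is rearranged in many myelomas and binds, as a dimer with MAX, the E-box CACGTG.

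Values are log2 intensities, so that a difference of 1 is a factor of 2. They were compared with limma over all 14725 genes, and a gene was called when its Benjamini-Hochberg adjusted p was under 0.05. Array medians lay between 5.46 and 5.53. BCL9 read 7.73, 7.61 and 7.85 in the shBCL9 arrays, against 7.88, 7.90 and 7.88 in the shGFP arrays, and its difference of -0.15 was not called (adjusted p = 0.0874), although all 3 shBCL9 arrays lay below the shGFP arrays. With miR-30 its difference was 0.14 (adjusted p = 0.269), and the miR-30 effect minus the hairpin effect was 0.29 (adjusted p = 0.0404). Thus no fall of BCL9 RNA was called in either arm, and groups are named by their labels. All 8 plasma cell markers passed the filter, with a median level of 11.8 and a highest mean level of 13.79. So did 3 of 4 B cell markers (all but MS4A1, highest mean level 6.30), 3 of 5 of T and NK cells (not CD2 and NKG7; 6.09), 2 of 4 of myeloid cells (not CD14 and LYZ; 5.73), 2 of 2 of erythroid cells (7.27) and 4 of 6 of stromal and epithelial cells (not COL1A2 and EPCAM; 13.59). Their part in the results was not tested. The arrays read RNA of many cells together, sorted GFP-positive cells in the infected arm and cells with no sorting stated in the transfected arm. A change in the share of cells and a change per cell therefore cannot be told apart.

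The promoters of the genes were read first, from RefSeq windows of 250 bases before to 50 bases after the start on GRCh38.p14. Of the 39 genes, 32 have a window in this table, and 15 of these windows (46.9%) hold CACGTG, a palindrome that reads the same on both strands. Among genes tested on the arrays, 14 of 28 genes with a window (50%) hold it, beside 12.2% of all 11677 tested genes with a window and 8.77% of the 27305 genes of the table. The related letters CATGTG or CACATG, counted apart from it on both strands, were found in 1 of the 32 windows (3.12%), beside 13.4% of all genes. Among genes tested on the arrays they were in 1 of 28 (3.57%), beside 10.4% of all tested genes with a window. A match describes the letters of a window and is not a site of binding. The stretches below show the bases before the start in the 6 genes with a motif wholly before it, each in its gene's own direction, with CACGTG in capitals:
SRM, chr1:11060119-11060218, minus strand: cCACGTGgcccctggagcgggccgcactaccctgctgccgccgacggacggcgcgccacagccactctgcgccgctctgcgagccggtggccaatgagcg
ODC1, chr2:10448013-10448112, minus strand: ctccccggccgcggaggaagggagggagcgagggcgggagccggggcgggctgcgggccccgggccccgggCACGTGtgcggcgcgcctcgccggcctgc
DDX21, chr10:68956547-68956646, plus strand: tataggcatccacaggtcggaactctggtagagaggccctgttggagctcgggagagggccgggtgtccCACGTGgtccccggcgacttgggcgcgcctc
UTP20, chr12:101280005-101280104, plus strand: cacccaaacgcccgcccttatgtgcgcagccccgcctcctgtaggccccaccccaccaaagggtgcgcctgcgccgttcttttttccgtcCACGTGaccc
UTP4, chr16:69132549-69132648, plus strand: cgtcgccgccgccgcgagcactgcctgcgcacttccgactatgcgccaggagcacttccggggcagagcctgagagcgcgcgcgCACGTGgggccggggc
NOP10, chr15:34343137-34343336, minus strand: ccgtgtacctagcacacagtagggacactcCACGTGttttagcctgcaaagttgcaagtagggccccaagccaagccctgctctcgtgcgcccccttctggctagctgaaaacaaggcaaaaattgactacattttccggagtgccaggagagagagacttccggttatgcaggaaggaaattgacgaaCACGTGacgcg

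The motif of DDX21, ODC1, UTP4 and UTP20 lies 31, 29, 16 and 10 bases before the start, that of SRM 199 bases before it, and NOP10 has the motif at 170 and at 11 bases. ODC1 holds the motif again after the start, from base 6, outside the stretch shown. In the other windows that hold it the motif lies across the start (RRP9) or after it (FBL, BYSL, NOP2, NOP14, WDR43, PES1, GAR1 and GNL3). SRM, UTP20, UTP4, ODC1 and DDX21 are among the genes whose levels separated the arms, and NOP10 moved the opposite way, as the values below show. Over the 14 tested genes with the motif the median difference between the control groups of the arms was 1.05 (range -0.39 to 1.96), and over the 14 without it 0.68 (range -0.21 to 2.11). The ranges overlap almost wholly.

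The widest separation in these genes was between the arms. Most of them read higher in cells that were infected and sorted than in cells that were transfected, whichever hairpin or microRNA was given. Comparing the control groups, shGFP minus cel-miR-67, 29 of the 33 genes were called higher and 3 lower, and GAR1 was not called; over all genes tested 61.4% were called, 28.4% higher and 33% lower. The median difference was 1.05, against 0.024 over all genes, and 19 of the 33 genes (57.6%) were at least 2-fold higher in shGFP, against 601 of all 14725 (4.08%). This contrast was added after the data were seen, and the arms differ in delivery, sorting and any batch at once, so these cannot be told apart.

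The arrays of each arm stood together. Taken as the deviation of each gene from its own mean over 12 arrays, the median gene read 0.54, 0.57 and 0.49 in the shBCL9 arrays and 0.52, 0.51 and 0.51 in the shGFP arrays. It read -0.51, -0.50 and -0.49 in the arrays labelled miR-30 and -0.54, -0.57 and -0.54 in the cel-miR-67 arrays. Among the control arrays, those of shGFP lay wholly above those of cel-miR-67 in 30 genes and wholly below in 3, where 66.1% of all genes did not overlap, 31.3% above and 34.8% below. All 6 infected arrays lay above all 6 transfected arrays in 28 of the 33 genes (84.8%) and below them in NOP10 alone, whereas over all genes tested this held for 21% and 26%. The arms overlapped in GAR1, UBTF, RRN3 and SMS.

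**Figure D1:**
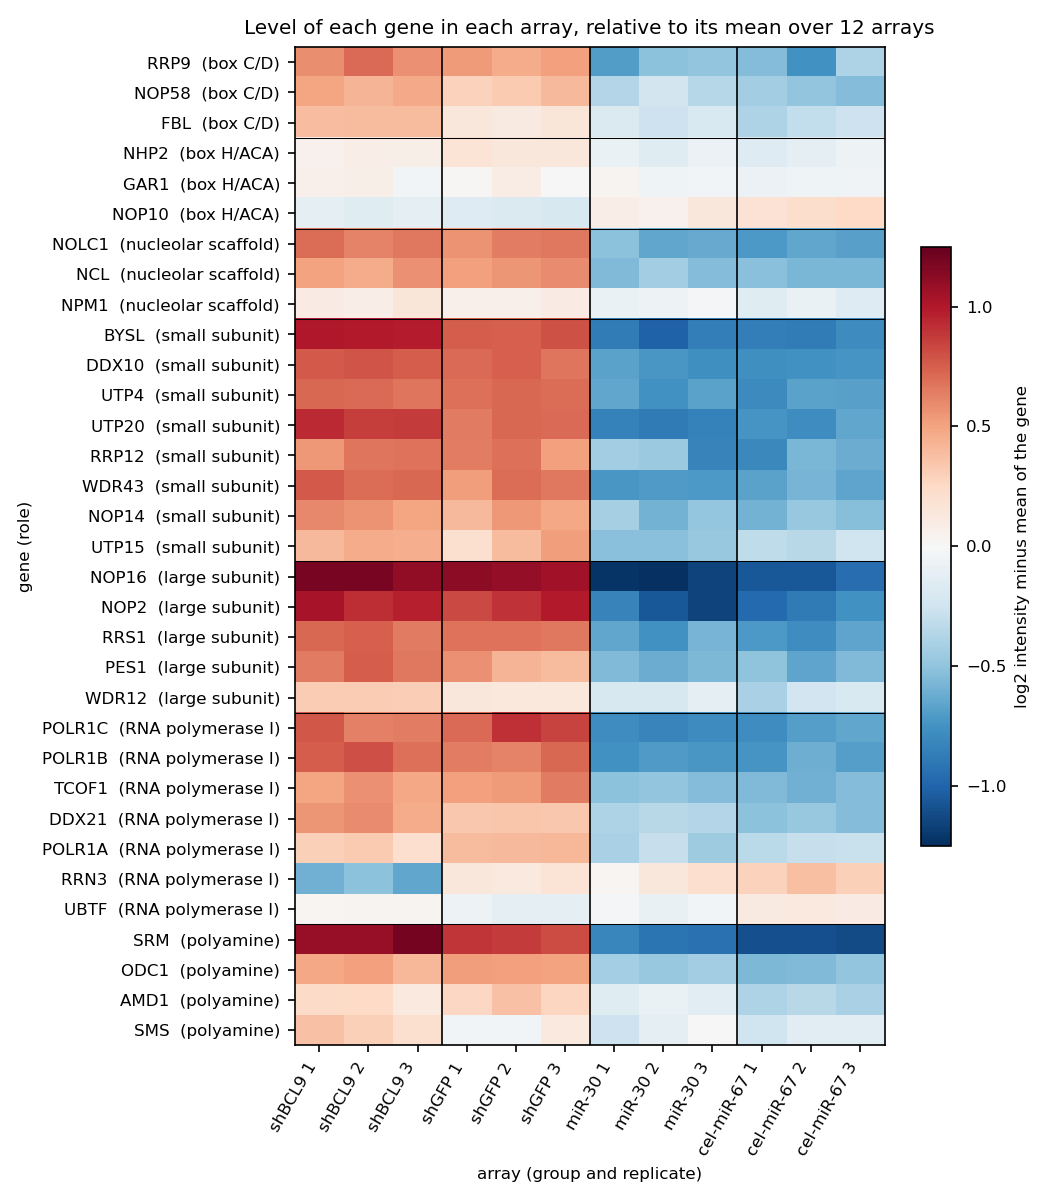
Level of each of the 33 genes (down the page, grouped by role) in each of the 12 arrays (across), as log2 intensity minus the mean of that gene over all arrays, red above and blue below it. Most genes are red in the 6 infected arrays and blue in the 6 transfected arrays, and NOP10 has the opposite order.

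A sign of RNA quality moved with the arms. In ACTB, the control probe set at the 3' end exceeded that at the 5' end by 1.30 ± 0.11 in shGFP and 2.16 ± 0.09 in cel-miR-67 (SD over 3 arrays each; a two-sided exact permutation test gave p = 0.1, its lower limit for groups of 3). With that value of each array as a covariate, 20 of the 33 genes were called higher and 0 lower, with a median of 1.08, where 11.3% of all genes were called. The probe sets of 18S ribosomal RNA read 12.38 ± 0.07 and 12.50 ± 0.05 (SD, n = 3 each). With them as covariate 28 genes were called higher and 2 lower, where 49% of all genes were called. In ACTB and in 18S every shGFP array read lower than any cel-miR-67 array. These fits therefore cannot tell the covariate from the arm. The 3' minus 5' difference in GAPDH was 0.136 ± 0.019 in shGFP and 0.179 ± 0.036 in cel-miR-67 (exact permutation p = 0.3).

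The assembly factors of the small subunit all read higher in shGFP than in cel-miR-67, 8 of 8 called, with a median difference of 1.35. BYSL, a factor of late maturation of the small subunit, read 9.55, 9.55 and 9.60 in shGFP, against 7.94, 7.93 and 8.01 in cel-miR-67. This is a 3.04-fold difference (log2 1.61, SE 0.05, adjusted p = 4.53e-11), and no array of one arm came near the other. The RNA helicase gene DDX10 read 10.84, 10.88 and 10.80, against 9.36, 9.38 and 9.40, a difference of 1.46. UTP20, a scaffold of the early particle, read 8.69, 8.76 and 8.75, against 7.30, 7.26 and 7.39, a difference of 1.42. In both genes the groups were far apart. UTP4, a subunit that links transcription of the precursor to its processing, read 11.10, 11.13 and 11.11 in shGFP, against 9.61, 9.74 and 9.73 in cel-miR-67, a difference of 1.42. WDR43, another small subunit factor, read 9.72, 9.90 and 9.85 in shGFP, against 8.52, 8.61 and 8.53 in cel-miR-67, a difference of 1.27. The others were RRP12 (1.28), NOP14 (1.01) and UTP15 (0.68). With plain probe sets only, those not marked as shared between transcripts, RRP12 measured 0.28, on a dim probe set with a mean level of 5.34.

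All 5 genes of the large subunit were called higher in shGFP, with a median of 1.39. NOP16, which encodes a nucleolar assembly protein, had the largest difference of the 33 genes by brightest probe set, though as the mean of its probe sets it was 1.13, below SRM (1.96) and NOP2 (1.78). That mean takes in dim probe sets, with mean levels of 5.52 and 5.97 beside 10.91 and 9.07 for the others. By its brightest probe set NOP16 read 12.03, 12.01 and 11.96 in shGFP, against 9.85, 9.85 and 9.96 in cel-miR-67, a 4.32-fold difference (log2 2.11, SE 0.05, adjusted p = 5.77e-12). NOP2, which encodes an RNA methyltransferase, read 8.32, 8.40 and 8.49, against 6.53, 6.62 and 6.74, a difference of 1.78. RRS1, which helps to load a small ribosomal RNA and its proteins onto the particle, read 11.14, 11.14 and 11.12, against 9.75, 9.68 and 9.81, a difference of 1.39. In each of these 3 genes the nearest arrays of the groups were more than 2-fold apart. PES1 and WDR12, which form a complex with BOP1, differed by 1.03 and 0.41. Another probe set of PES1 measured -1.09, and as the mean of its probe sets PES1 was -0.031.

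Polymerase I genes did not all take the same direction, with 5 higher and 2 lower. The subunit gene POLR1C read 9.11, 9.31 and 9.25 in shGFP, against 7.63, 7.71 and 7.75 in cel-miR-67, a 2.88-fold difference. POLR1B, the gene of another large subunit, averaged 10.04 ± 0.05 in shGFP and 8.70 ± 0.07 in cel-miR-67 (SD, n = 3 each), a difference of 1.34. The largest subunit POLR1A differed by 0.70, TCOF1, which encodes the nucleolar protein treacle, by 1.13 and the helicase gene DDX21 by 0.85. The groups of these 5 genes did not overlap. The initiation factor genes differed from these. UBTF, which encodes the factor that binds along the ribosomal DNA, read 8.13, 8.08 and 8.09 in shGFP, against 8.31, 8.32 and 8.30 in cel-miR-67, a difference of -0.21 (adjusted p = 0.000786). Its 4 other probe sets measured 0.22 to 0.45, and the mean of its probe sets was called higher (0.23), so its direction depends on the probe set. RRN3, which encodes the factor that makes polymerase I competent to start, read 9.43, 9.41 and 9.46, against 9.57, 9.66 and 9.59, a difference of -0.17 (adjusted p = 0.0195), and 0.096 with the ACTB covariate.

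The ribonucleoprotein genes divided by class. The 3 box C/D genes, whose particles guide ribose methylation, were all called higher in shGFP. NOP58 read 12.40, 12.44 and 12.52, against 11.67, 11.62 and 11.57 in cel-miR-67, a difference of 0.83. RRP9, a protein of the U3 particle, differed by 1.06 and the methyltransferase gene FBL by 0.45. The 3 box H/ACA genes, whose particles guide pseudouridylation and are also part of telomerase, did not move as one. NHP2 read 13.25, 13.22 and 13.23 in shGFP, against 12.92, 12.96 and 13.02 in cel-miR-67, a difference of 0.27. NOP10 read 12.49, 12.47 and 12.45, against 12.83, 12.87 and 12.90, a difference of -0.39 (adjusted p = 5.24e-06), and GAR1 differed by 0.09 (adjusted p = 0.128). NOP10 was thus lower in every infected array and NHP2 higher in every shGFP array than in any cel-miR-67 array. Of the abundant nucleolar proteins, NOLC1, a chaperone of these particles, read 12.09, 12.17 and 12.19 in shGFP, against 10.82, 10.88 and 10.85, a difference of 1.30. NCL (nucleolin) differed by 1.11 and NPM1 (nucleophosmin) by 0.21.

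The 4 polyamine genes were called higher in shGFP, with a median of 0.86. SRM, the spermidine synthase gene, read 11.24, 11.22 and 11.17, against 9.25, 9.25 and 9.23 in cel-miR-67, a 3.90-fold difference (log2 1.96, SE 0.05, adjusted p = 7.11e-12). ODC1, the gene of ornithine decarboxylase, read 12.87, 12.85 and 12.84, against 11.78, 11.79 and 11.85, a difference of 1.05. AMD1, the gene of S-adenosylmethionine decarboxylase, read 10.31, 10.42 and 10.32, against 9.67, 9.71 and 9.65, a difference of 0.68. These 3 genes were higher in every infected array than in any transfected one. SMS, the spermine synthase gene, read 9.45, 9.45 and 9.61, against 9.24, 9.35 and 9.35, a difference of only 0.19 (adjusted p = 0.0401), and its arms overlapped.

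**Figure D2:**
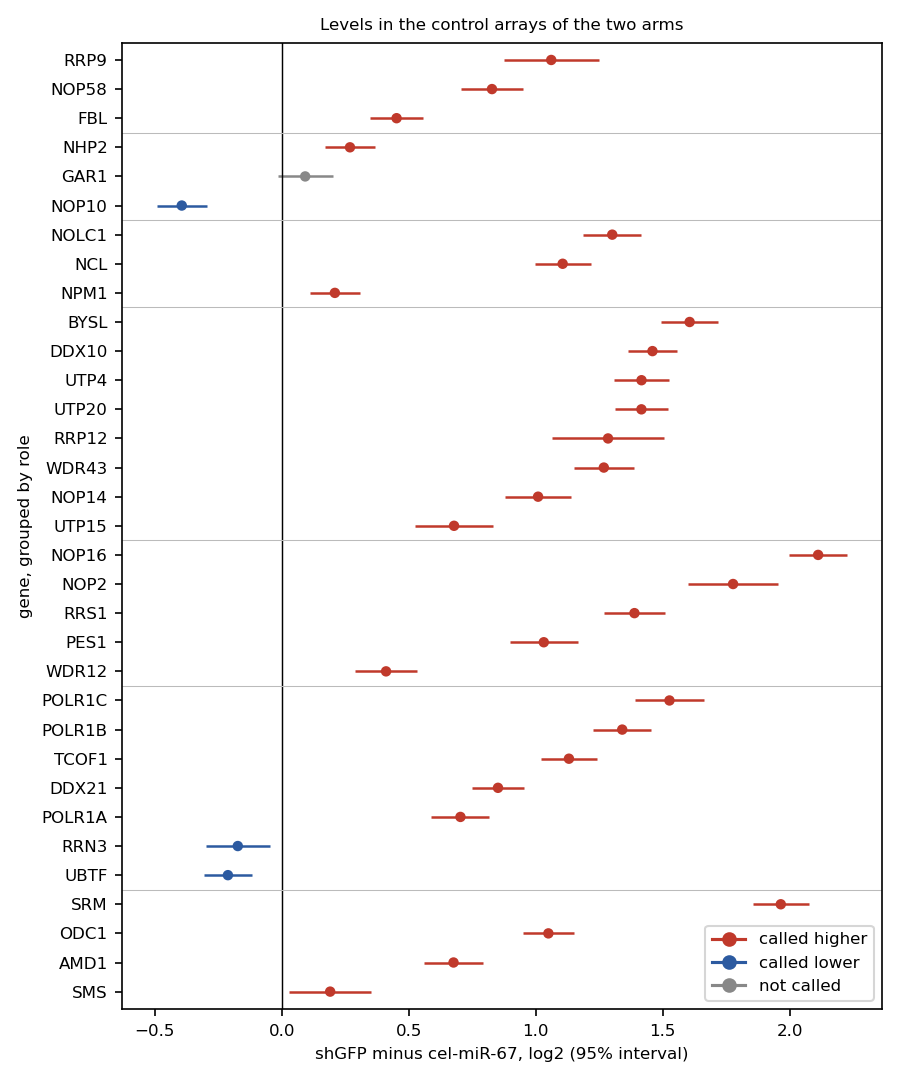
Difference of each of the 33 genes between the control groups, shGFP minus cel-miR-67, on the log2 scale (across), with its 95% interval as a line; genes run down the page by role, red called higher, blue called lower and grey not called. The points run from NOP10 at -0.39 to NOP16 at 2.11.

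Other genes of the same pathways, from lists chosen with earlier results known, were mostly higher in shGFP for assembly and went both ways for polyamines. Of 40 other genes of the small subunit, 39 were called higher in shGFP and 0 lower (median 0.89), and the lowest adjusted p belonged to TSR1 (2.09), WDR3 (1.48), PNO1 (1.18) and UTP18 (1.17). Of 46 other genes of large subunit assembly and export, 40 were higher and 3 lower (median 0.79), with MRTO4 (2.02), DDX56 (1.26), GNL2 (1.23) and WDR74 (1.21). With the ACTB covariate 19 and 16 of these were higher. In the list of other polymerase I genes 8 of 13 were higher and 2 lower, including POLR1G (1.84), TAF1D (1.16), POLR1E (0.91) and POLR1F (0.64). In the order given, 97.5%, 93.5% and 76.9% of these lists were called, beside 61.4% of all genes. One dimmer probe set of TSR1 measured -0.17, and as means of their probe sets TSR1 was 1.15 and DDX56 0.67.

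Other polyamine genes went both ways, with 6 of 19 higher and 8 lower, 73.7% together beside 61.4% of all genes. SAT1 and SAT2, which encode acetyltransferases, SAT1 acting on spermidine and spermine, were lower in the infected arm, as was PAOX, which encodes the oxidase that acts on acetylated polyamines. SAT1 read 9.12, 9.18 and 9.29 in shGFP, against 10.86, 10.91 and 10.95 in cel-miR-67, a difference of -1.71 (adjusted p = 4.4e-11), and its 2 other probe sets measured -1.76 and -1.41. PAOX read 7.32, 7.39 and 7.48, against 9.18, 9.27 and 9.35, a difference of -1.87, and -0.91 as the mean of its probe sets. SAT2 differed by -0.96, and SMOX, the spermine oxidase gene, by -0.18 without a call (adjusted p = 0.0985). MAT2A, which makes S-adenosylmethionine, was higher, by 1.00.

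MYC read 9.10, 9.05 and 9.17 in shGFP, against 7.19, 7.25 and 7.10 in cel-miR-67, a difference of 1.93 (SE 0.07, adjusted p = 7.28e-11). MXD1, which competes with MYC for MAX, read 6.57, 6.83 and 6.94, against 8.98, 9.06 and 9.01, a difference of -2.24, and -1.31 as the mean of its probe sets. MYC was thus high in every infected array and MXD1 in every transfected one. Of the 12 MYC network genes tested, MYC, MAX (0.28) and MLX (0.19) were called higher and MXD1 lower. This is 33.3% of them, beside 61.4% of all genes.

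**Figure D3:**
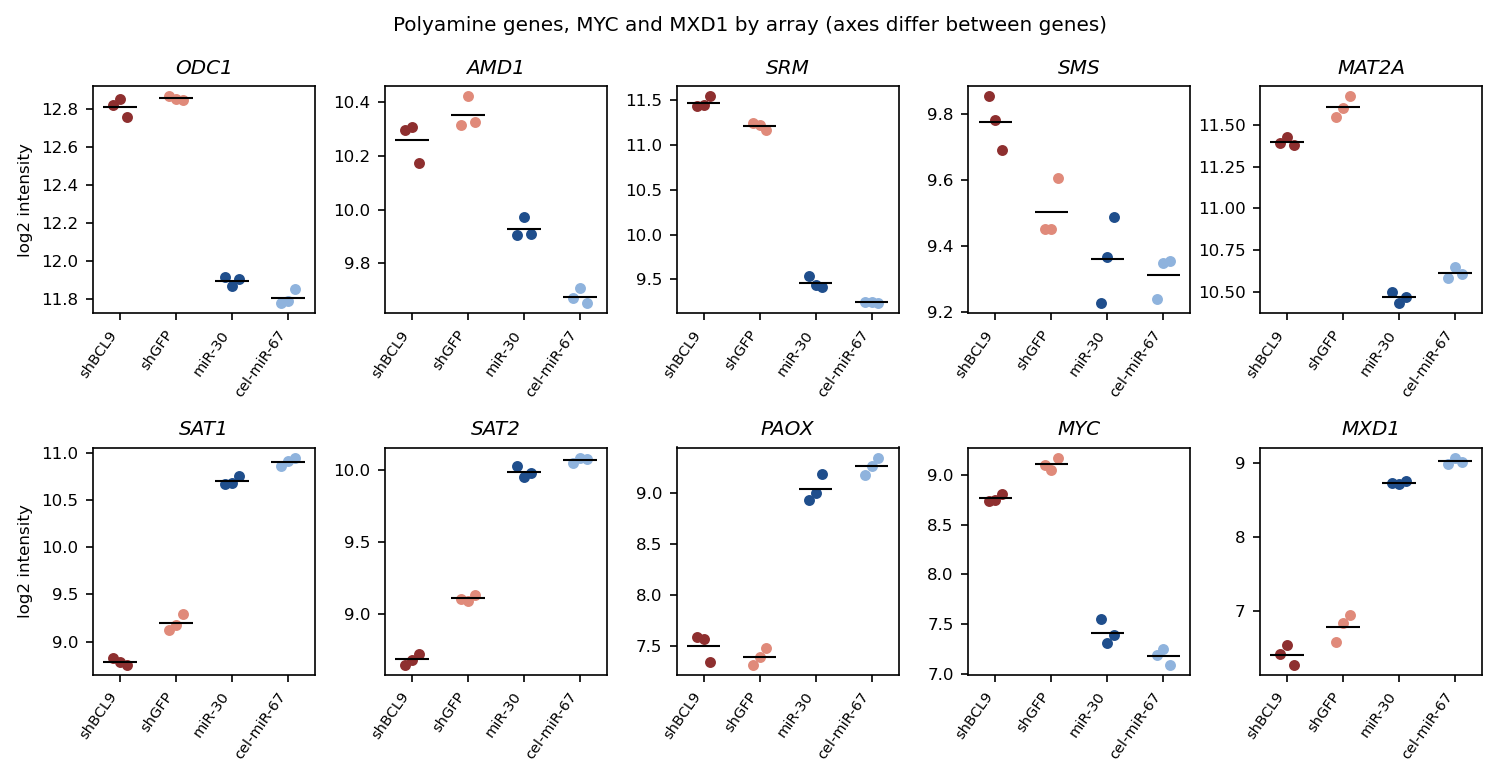
Log2 intensity (vertical axis, its range set for each gene) of 4 polyamine synthesis genes, MAT2A, SAT1, SAT2, PAOX, MYC and MXD1 in the 4 groups; points are arrays and bars group means. ODC1, AMD1, SRM, MAT2A and MYC are high in the infected arm, and SAT1, SAT2, PAOX and MXD1 are high in the transfected arm.

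The hairpin against BCL9 was compared with shGFP to ask how its effect reached these genes. Small rises in 9 genes and a larger fall of RRN3 were called. The 10 called genes (30.3%) stand beside 41.5% of all genes, 18.7% higher and 22.9% lower, so the genes as a group were called no more often than the rest of the array. Their median change was 0.066, against 0.027 over all genes. The shBCL9 arrays lay wholly above the shGFP arrays in 13 genes and wholly below in 4, where 24.8% and 27.2% of all genes did so, 52% together.

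RRN3 fell most. It read 8.68, 8.77 and 8.64 in the shBCL9 arrays, against 9.43, 9.41 and 9.46 in the shGFP arrays. The change of -0.74 (SE 0.06, 1.67-fold lower, adjusted p = 7.77e-07) was larger than any spread between arrays of a group, and the shBCL9 arrays were also below all transfected arrays. RRN3 was read from a single probe set, which is of the kind shared between transcripts.

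Of the polyamine genes, SRM and SMS rose. SRM read 11.44, 11.44 and 11.54 in shBCL9, against 11.24, 11.22 and 11.17 in shGFP, a change of 0.26 (adjusted p = 0.00117). SMS read 9.85, 9.78 and 9.69, against 9.45, 9.45 and 9.61, a change of 0.27 (adjusted p = 0.0107). In both the groups did not overlap, although the nearest arrays of SMS were less than 0.1 apart. ODC1 (-0.05) and AMD1 (-0.09, adjusted p = 0.171) were not called.

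Among ribonucleoprotein and subunit genes, FBL, BYSL, UTP20, PES1 and WDR12 rose. FBL read 12.51, 12.52 and 12.52 in shBCL9, against 12.27, 12.24 and 12.28 in shGFP, a change of 0.25 (adjusted p = 0.000987). BYSL read 9.81, 9.79 and 9.78, against 9.55, 9.55 and 9.60, a change of 0.23 (adjusted p = 0.00383). UTP20 read 8.97, 8.91 and 8.92, against 8.69, 8.76 and 8.75, a change of 0.20 (adjusted p = 0.00608). In each of these the arrays of the groups stood well apart. PES1 read 9.05, 9.16 and 9.06, against 8.97, 8.82 and 8.80, a change of 0.22 (adjusted p = 0.0113), and its other probe set measured 0.25. WDR12 read 10.85, 10.86 and 10.84, against 10.68, 10.67 and 10.66, a change of 0.18 (adjusted p = 0.0208). Its 2 dimmer probe sets measured -0.03 and 0.0039, and without shBCL9 replicate 1, shGFP replicate 2 or shGFP replicate 3 it was not called (adjusted p = 0.0541, 0.0551 and 0.0518).

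Of the polymerase I genes, DDX21 and UBTF rose. DDX21 read 11.66, 11.69 and 11.57 in shBCL9, against 11.44, 11.46 and 11.44 in shGFP, a change of 0.19 (adjusted p = 0.00547). UBTF read 8.23 in all 3 shBCL9 arrays, against 8.13, 8.08 and 8.09 in shGFP, a change of 0.13 (adjusted p = 0.0263). In a fit over all probe sets, 3 other UBTF probe sets measured 0.42, 0.43 and 0.59 and were called, and another measured 0.22. With the brightest probe set UBTF was not called without shBCL9 replicate 1, 2 or 3 or shGFP replicate 2 or 3 (adjusted p = 0.0648, 0.0573, 0.0569, 0.0892 and 0.069). POLR1A (-0.13, adjusted p = 0.0677), POLR1C (-0.14), TCOF1 (-0.05) and POLR1B (0.09) were not called.

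The other genes changed by -0.08 (NHP2) to 0.13 (NOP58) and were not called. In the order of the roles, 1 of 3 box C/D genes, 0 of 3 box H/ACA genes, 0 of 3 nucleolar scaffold genes, 2 of 8 small subunit genes, 2 of 5 large subunit genes, 2 of 7 polymerase I genes and 2 of 4 polyamine genes were called higher. Probe sets of some uncalled genes differed. One of TCOF1 measured 0.37 where the brightest measured -0.05, those of NOLC1 measured 0.22 and 0.24 beside 0.04, and one of POLR1B measured -0.33 beside 0.09.

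**Figure D4:**
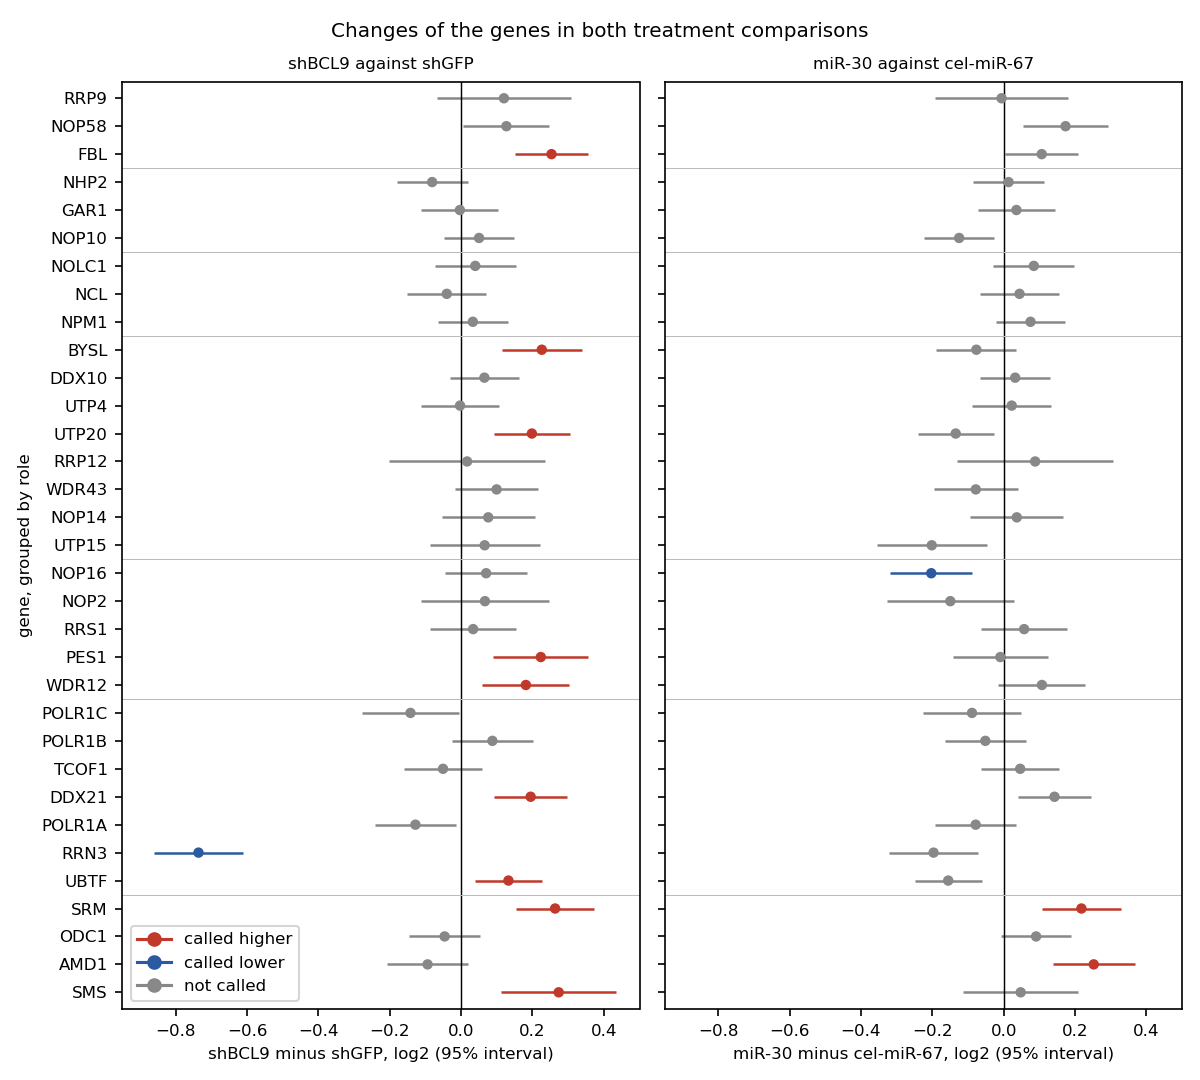
Change of each of the 33 genes on the log2 scale with its 95% interval, shBCL9 minus shGFP (left) and miR-30 minus cel-miR-67 (right), on the same axis; red called higher, blue called lower, grey not called. RRN3 at -0.74 in the left panel lies apart from the other genes, which stay between -0.20 and 0.27 in both panels.

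ACTB and 18S moved with the hairpin as well, while GAPDH did not. The ACTB difference was 1.67 ± 0.08 in shBCL9 and 1.30 ± 0.11 in shGFP (exact permutation p = 0.1, two-sided), the same measure in GAPDH 0.131 ± 0.021 and 0.136 ± 0.019 (exact p = 0.5), and the 18S probe sets read 13.23 ± 0.02 and 12.38 ± 0.07 (exact p = 0.1; SD, n = 3 each). With the ACTB covariate FBL, SRM and RRN3 were called, 2 higher and 1 lower, where 20.1% of all genes were called, 7.3% higher. With the 18S covariate limma called 0 of the 33 genes, 0 had an unadjusted p under 0.05, only 0.0747% of all genes were called, and BYSL was -0.053. Every shBCL9 array read higher in the ACTB difference and in 18S than any shGFP array. Neither fit can therefore tell its covariate from the hairpin.

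The longer lists changed by similar amounts. Of the small subunit, large subunit and polymerase I lists 30%, 30.4% and 30.8% were called, beside 41.5% of all genes. Of 40 other small subunit genes 11 rose and 1 fell, with TSR1 (0.31), DIMT1 (0.29), NOC4L (0.29) and SNU13 (0.25) lowest in adjusted p. Of 46 large subunit genes 12 rose and 2 fell, with GRWD1 (0.57), DDX54 (0.49), NLE1 (0.34) and MAK16 (0.31). Other probe sets of DDX54 measured 0.13 and -0.13. As the mean of its probe sets DDX54 was 0.16 and SNU13 0.14, the call of SNU13 being lost (adjusted p = 0.0528). Of 13 polymerase I genes 2 rose, TTF1 (0.19) and POLR1G (0.20), and 2 fell, TAF1D (-0.31) and TAF1B (-0.16). After a further quantile normalization the small subunit list had 18 higher and 0 lower, and with arrays centred on their medians 10 and 1. With the ACTB covariate limma called 0 small subunit genes in either direction, with 3 higher and 2 lower at an unadjusted p under 0.05, and 5 large subunit genes higher and 0 lower (1 unadjusted). Centring left the polymerase I list with 0 higher and 2 lower.

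Of 19 other polyamine genes 4 rose and 6 fell in shBCL9. They make 52.6% of that list, and 33.3% of the MYC network genes were called, beside 41.5% of all genes. EIF5A2, an isoform of the factor that carries hypusine, a spermidine-derived residue, read 6.89, 7.10 and 6.84 in shBCL9, against 7.58, 7.69 and 7.69 in shGFP, a change of -0.71 (adjusted p = 6.51e-06). EIF5A, the main gene of that factor and named after its values were seen, rose by 0.36 (adjusted p = 0.00477), and DOHH, which completes hypusine, by 0.34. SAT1 read 8.82, 8.79 and 8.76, against 9.12, 9.18 and 9.29, a change of -0.41, and SAT2 changed by -0.42. MYC read 8.73, 8.74 and 8.81, against 9.10, 9.05 and 9.17, a change of -0.34 (adjusted p = 0.00124). MYC was thus lower in every shBCL9 array than in any shGFP array. Of the 12 MYC network genes limma called 0 higher, with 0 at an unadjusted p under 0.05, and 4 lower, MYC, MXI1 (-0.52), MXD1 (-0.38) and MXD3 (-0.29), the last 3 genes of the MXD family of MAX partners. With the ACTB covariate MYC was -0.38 (adjusted p = 0.11) and MXD3 0.012.

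In the arrays labelled miR-30, the genes changed little. AMD1 and SRM were called higher than in cel-miR-67 and NOP16 lower. These 3 genes (9.09%) stand beside 4.98% of all genes, 2.34% higher and 2.63% lower, and 11 of the 33 had an unadjusted p under 0.05. The unadjusted share over all genes was not counted. Unadjusted counts, here and elsewhere, therefore cannot be read as a response of these genes. The median change was 0.032, against -0.017 over all genes. The miR-30 arrays lay wholly above the cel-miR-67 arrays in 8 genes and wholly below in 8, where 10% and 16.1% of all genes did so, 26.1% together, and 17 genes overlapped.

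AMD1 read 9.90, 9.97 and 9.91 in miR-30, against 9.67, 9.71 and 9.65 in cel-miR-67, a change of 0.25 (SE 0.05, adjusted p = 0.0178), and its other probe set measured 0.21. SRM read 9.53, 9.44 and 9.42, against 9.25, 9.25 and 9.23, a change of 0.22 (adjusted p = 0.0281). In both genes every miR-30 array was above every cel-miR-67 array. ODC1 (0.09, adjusted p = 0.283) and SMS (0.05, adjusted p = 0.776) were not called. NOP16 read 9.69, 9.62 and 9.75, against 9.85, 9.85 and 9.96, a change of -0.20 (adjusted p = 0.0484). Its other probe sets measured -0.18 and, in the dim ones, -0.02 and 0.10. The NOP16 call was lost with the replicate block (adjusted p = 0.0675), with no filter (0.0873), in a fit of the 6 arrays alone (0.116), with plain probe sets (0.263) and as the mean of its probe sets, where it was -0.075 (0.513). That of SRM was lost with no filter (limma adjusted p = 0.0554), in the fit of 6 arrays (0.0719) and with the ACTB covariate (0.0732).

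Not all of these calls held when 1 array was left out, though the values changed little. Over these fits SRM measured 0.18 to 0.24 and NOP16 -0.24 to -0.17. With miR-30 replicate 2, or any 1 of the 3 cel-miR-67 arrays, left out, limma called 0 genes higher and 0 lower, with 4 to 7 higher and 3 to 7 lower at an unadjusted p under 0.05. The share of all genes called was then 2.02% to 2.8%, against 4.98% with every array. Without miR-30 replicate 1 the counts were 1 and 0, AMD1 alone, and without miR-30 replicate 3 they were 2 and 1. The values of AMD1 without 1 of the 4 arrays whose omission left 0 calls were 0.23, 0.25, 0.27 and 0.24 (limma adjusted p = 0.0773, 0.056, 0.0511 and 0.0665). The ACTB difference was 2.07 ± 0.01 in miR-30 and 2.16 ± 0.09 in cel-miR-67 (exact permutation p = 0.4, SD, n = 3 each). That of GAPDH was 0.203 ± 0.040 and 0.179 ± 0.036 (exact permutation p = 0.6). The 18S probe sets read 12.64 ± 0.04 and 12.50 ± 0.05 (exact permutation p = 0.1).

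By role the median changes with miR-30 were 0.15 for the polyamine genes, 0.11 for box C/D, 0.075 for the nucleolar scaffold genes, 0.014 for box H/ACA, -0.0092 for the large subunit, -0.027 for the small subunit and -0.078 for polymerase I. RRN3 read 9.31, 9.43 and 9.49, against 9.57, 9.66 and 9.59 in cel-miR-67, a change of -0.20 that was not called (adjusted p = 0.0725). UBTF read 8.19, 8.11 and 8.17, against 8.31, 8.32 and 8.30, a change of -0.16 (adjusted p = 0.0593). The arrays of both genes did not overlap. NOP58 (0.17, adjusted p = 0.0933) and DDX21 (0.14, adjusted p = 0.105) were higher in every miR-30 array and also not called.

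In the lists, IMP3 (-0.23) and MPHOSPH10 (-0.24), partners in the U3 particle, fell and limma called 0 of 40 small subunit genes higher, with 2 higher and 11 lower at an unadjusted p under 0.05. Of 46 large subunit genes 0 rose (2 at an unadjusted p under 0.05) and 4 fell (15 unadjusted), the helicase genes DDX24 (-0.22) and DDX56 (-0.22), FTSJ3 (-0.23) and ZNF622 (-0.20). As the mean of its probe sets DDX56 was -0.099 (adjusted p = 0.191) and was not called. Of 13 polymerase I genes limma called 0, and 0 had an unadjusted p under 0.05. Of the polyamine list 0 of 19 rose (1 unadjusted) and 1 fell, SAT1 (-0.21). Of the MYC network 0 of 12 rose (3 unadjusted) and 1 fell, MLX (-0.27), which as the mean of its probe sets was -0.12 (adjusted p = 0.113) and not called. In the order given, 5%, 8.7%, 0%, 5.26% and 8.33% of the lists were called, beside 4.98% of all genes. MYC read 7.55, 7.31 and 7.39, against 7.19, 7.25 and 7.10, a change of 0.24 (adjusted p = 0.0595).

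Whether a gene responded differently to the treatments was tested as the miR-30 effect minus the shBCL9 effect. Of the 33 genes 2 were called higher and 4 lower (18.2%), where 26.3% of all genes were called. RRN3 (0.54, adjusted p = 0.000406) fell by 0.74 with the hairpin and measured -0.20 with miR-30. AMD1 (0.35, adjusted p = 0.00455) rose with miR-30 and measured -0.09 with the hairpin. UTP20 (-0.33, adjusted p = 0.00358), BYSL (-0.30, adjusted p = 0.00894) and UBTF (-0.29, adjusted p = 0.00407) rose with the hairpin and measured -0.13, -0.08 and -0.16 with miR-30. NOP16 (-0.27, adjusted p = 0.0181) measured 0.07 with the hairpin and fell with miR-30. As the mean of its probe sets its difference of effects was -0.15 and the call was lost. With the ACTB covariate, which cannot be told from the hairpin, the 4 genes with a negative difference were not called. SRM, called in both arms by the main fit, differed by -0.05 (adjusted p = 0.682, 95% interval -0.20 to 0.11), and 2.76% of all genes were called in both. Its miR-30 call was lost in 10 of 19 alternatives. The effects on MYC differed by 0.58 (adjusted p = 0.000641).

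**Figure D5:**
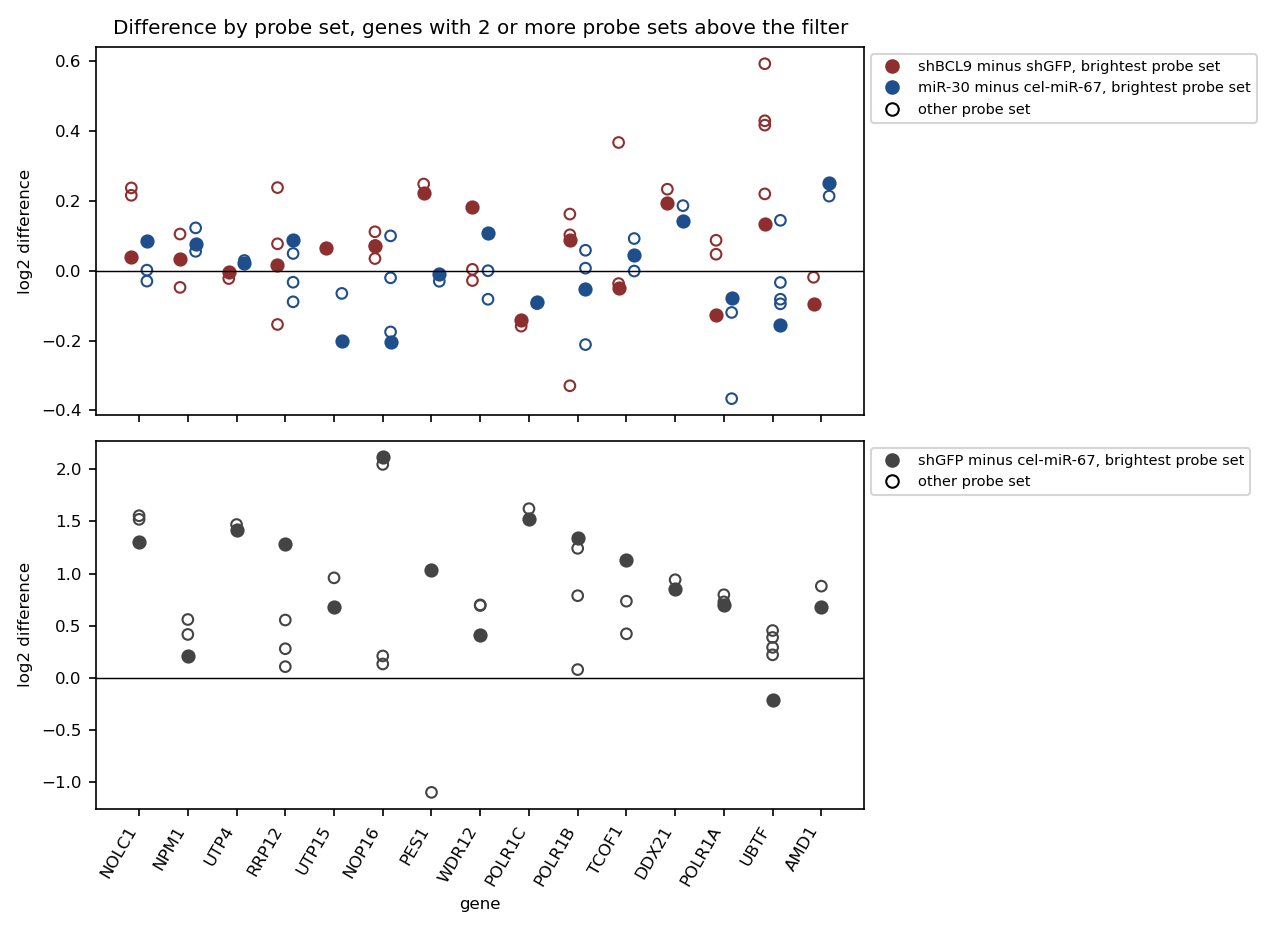
Log2 difference by probe set for the 15 genes with 2 or more probe sets above the filter, in the treatment comparisons (top) and between the control groups (bottom); filled points are the brightest probe set and open points the others. In the bottom panel UBTF and PES1 have probe sets on both sides of 0.

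Across the 15 genes with further probe sets above the filter, 24 of 29 other probe sets had the sign of the brightest one between the control groups, 22 of 29 with the hairpin and 19 of 29 with miR-30. The 5 exceptions between the control groups were the 4 UBTF probe sets and that of PES1. For POLR1C the other probe set measured 1.62 beside 1.53, for NOLC1 1.55 and 1.52 beside 1.30, and for UTP4 1.47 beside 1.42. Those of NOP16 measured 2.05 and, in the dim ones, 0.21 and 0.13, beside 2.11.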

How the data were processed

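RNA was extracted with Trizol and labelled by a 3' in vitro transcription kit, per the labels' protocols. The deposited values are log2 intensities that the authors made with affy and RMA (versions not given, per the submitters' processing notes) and were used without further normalization. Arrays give no read depth, and 3 arrays per group limit the precision. Pairs of arrays shared 17 to 90 identical values, so none was a duplicate.

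Of the probe sets, 41097 had 1 symbol in the platform annotation, 1801 several and 11777 were not listed. The filter level was 4.86 to 4.95. With limma 3.58.1 (lmFit, eBayes; R 4.3.3) 1 mean for each group was estimated from the 12 arrays, and adjusted p-values are over all genes tested. Contrasts were shBCL9 minus shGFP, the miR-30 effect over cel-miR-67, the difference of these effects and, added after the data were seen, shGFP minus cel-miR-67, which shares arrays with the treatment comparisons. Probe sets were also fitted one by one. The fit was tested on simulated data. Figures used Python 3.11.15 and matplotlib 3.10.9.

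The genes, lists and tests were chosen with earlier results of these data known. Every gene of the pathway set is named, with its arrays (POLR1B between the control groups as a mean and SD) where it was called in a treatment comparison, and for the control groups where it was among the 12 lowest adjusted p or filled a role; from the longer lists, up to 4 called genes by adjusted p, and MYC. The planned genes of most like profile are left out, because the arrays fall into 2 clusters.

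Alternatives were no filter or the 60th percentile, the mean of probe sets, plain probe sets, quantile normalization, centring on the median, a fit to 6 arrays alone, weighting of arrays, a variance trend with robust estimation, a replicate block, an adjusted p under 0.01, the ACTB covariate, each array left out, and, added later, an 18S covariate.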

Additional observations from a re-analysis of the deposited data

Results flagged for a closer look

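There were 6 genes whose effects differed between the arms by a test of the difference itself (miR-30 effect minus shBCL9 effect, limma). RRN3 differed by 0.54, AMD1 by 0.35, UTP20 by -0.33, BYSL by -0.30, UBTF by -0.29 and NOP16 by -0.27. They are 18.2% of the 33 genes, beside 26.3% of all genes called, so such differences were no more frequent here. NOP16 lost its call as the mean of its probe sets. UTP20, BYSL, UBTF and NOP16 lost theirs with the ACTB covariate. The groups of 3 arrays are too small for a test of single outlying arrays.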

How the results depend on the processing

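No gene called in a treatment comparison or in the difference of effects kept its call under every alternative, and 20 of the 32 called between the control groups did. With the hairpin FBL, RRN3 and SRM lost their call only with the 18S covariate, as did RRN3 and AMD1 for the difference of effects. That covariate was higher in every shBCL9 array than in any shGFP array, so its fit cannot tell it from the hairpin. The same holds for ACTB with the hairpin. Groups did not overlap in either covariate between the control groups, nor in 18S with miR-30, so those fits have the same limit. Of 187 gene values with the hairpin 152 kept direction and call, of 57 with miR-30 27, of 143 differences 129 and of 601 between the control groups 573. Reversed values were BYSL with the hairpin under the 18S covariate (-0.053), and, between the control groups, PES1 (-0.031) and UBTF (0.229) as means of probe sets and RRN3 with the ACTB covariate (0.096).

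With the hairpin (9 higher, 1 lower) 2 genes were higher with the ACTB covariate, 0 higher and 0 lower with 18S and 5 higher at an adjusted p under 0.01; 2 were lower with the 60th percentile, means of probe sets, centring or the variance trend, and 3 with array weights. With miR-30 (2 higher, 1 lower) 1 was higher without a filter, with 6 arrays or with ACTB, 3 with means of probe sets, quantile normalization or array weights, 4 with the variance trend, and 0 with 18S or the 0.01 threshold. None was lower without a filter, with means of probe sets, plain probe sets, quantile normalization, 6 arrays, the replicate block, either covariate or 0.01, and 3 were lower with the 60th percentile, weights or trend. For the difference (2 higher, 4 lower) 7 were lower with the 60th percentile, 8 with weights or trend and 0 with either covariate, and 1 was higher with plain probe sets, 3 with the variance trend and 0 with 18S. Between the control groups 0 were lower with ACTB. The cause of these shifts was not tested; plain probe sets leave 26 of the genes.

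Leaving out arrays gave 7 to 9 higher and 1 to 2 lower with the hairpin, 0 to 2 and 0 to 1 with miR-30, 2 to 2 and 4 to 5 for the difference, and 28 to 29 and 2 to 3 between the control groups. Same-numbered arrays deviated together at r = 0.0497 to 0.1 in the infected and 0.0913 to 0.226 in the transfected arm. Arrays of different numbers did so at -0.149 to 0.0648 and -0.242 to 0.126. These ranges overlap, and the main fit did not take the numbers as pairs. With a replicate block 9 genes were higher and 1 lower with the hairpin and 2 and 0 with miR-30. The block gave 2 and 5 for the difference, and 29 and 3 between the control groups. Of all genes called with the hairpin 44.9% were higher, 52.4% after quantile normalization and 36.7% after centring. The 6-array fit was not run for the difference.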
